A study of Homo sapiens with 8 samples.

Results

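The genes described here encode the nuclear subunits of respiratory complexes I to IV. They were chosen by symbol pattern from 43682 gene symbols counted in UM-RC-2 cells, which gave 66 genes: 36 subunits of complex I, 4 of complex II, 9 of complex III, 15 of complex IV, and the related pair NDUFA4 and NDUFA4L2. UM-RC-2 is an established line of clear cell renal cell carcinoma with a missense mutation of VHL, per the labels. All cells had been transduced by lentivirus, kept under blasticidin selection at 10 µg/ml, and carried a construct labelled either VEC or VHL. VHL encodes part of a ubiquitin ligase that marks hypoxia-inducible factors for breakdown through their alpha subunits. Each group had 2 RNA-seq libraries, numbered replicate 1 and replicate 2 in their titles. The labels give no oxygen level and do not say whether the replicates came from separate cultures. The p-values therefore speak for these libraries alone, and the fits share their estimate of spread across genes. In bulk libraries, fewer cells with a transcript and less of it per cell cannot be told apart.

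The respiratory chain passes electrons from NADH (complex I) and succinate (complex II) through complex III to oxygen at complex IV. Complexes I, III and IV pump protons across the inner mitochondrial membrane, and the gradient drives ATP synthase. Most subunits are encoded in the nucleus, and the cores of complexes I, III and IV also need subunits encoded in mitochondrial DNA. In clear cell carcinomas without working VHL, hypoxia-inducible factors are active at normal oxygen, and NDUFA4L2 is a well known target of theirs. COX4I2 is an isoform of COX4I1 that low oxygen is known to induce in some cells.

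The molecule label is total RNA for both replicate 1 libraries and polyA RNA for both replicate 2 libraries, and the headers show a different form of alignment name for each number. Library totals were 21306867 counts (VEC) and 16230291 (VHL) in replicate 1, and 50027348 and 46609709 in replicate 2. Across the tested symbols, log2 CPM (counts scaled to library size with TMM factors) correlated at 0.985 within replicate 1 and at 0.981 within replicate 2. The same correlation was 0.452 for VEC against VEC and 0.471 for VHL against VHL, across genes, which are not independent replicates. VHL transcripts themselves were at 37.1 and 146 CPM (VEC and VHL) in replicate 1 and at 88.9 and 151 CPM in replicate 2. All 6 renal line markers on the list were detected, PAX8 at 40.8 to 75.9 CPM, and 0 were called in the blocked fit. Even so, all 6 had blocked changes below 0 and 5 (83.3%) were lower in VHL in both pairs, with a median of -0.36 and the lowest value for the mesenchymal filament gene VIM (-0.59). Of 9 markers of other cell types, CD3E, PECAM1 and CDH5 had 0 counts throughout. CD68 reached 42.2 CPM, and PTPRC had 0 counts in replicate 1 but 72 and 63 in replicate 2. Changes are therefore given within each replicate pair, as log2 of VHL over VEC. They are also given from edgeR's quasi-likelihood test in 2 forms, one that models the group alone (the group-only fit) and one that adds the replicate number (the blocked fit).

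Promoter windows of 4 genes are printed: NDUFA4L2, and the 3 subunits with the largest falls among those called in the blocked fit. No expression value was computed from these windows. They are RefSeq reference windows on build GRCh38.p14, whereas the counts were made on hg19. Each runs 5′ to 3′ on the strand of its gene, from 250 bases before the annotated start to 30 bases after it. Capitals mark ACGTG or GCGTG (cores of the hypoxia response element), CCGGAAG (ETS) and ATGGCGG (YY1), on either strand. The windows lie at chr12:57240733-57241012 (minus strand, listed by RefSeq as COXFA4L2), chrX:47144673-47144952 (minus strand), chrX:119871582-119871861 (plus strand) and chr19:19515975-19516254 (plus strand).
NDUFA4L2: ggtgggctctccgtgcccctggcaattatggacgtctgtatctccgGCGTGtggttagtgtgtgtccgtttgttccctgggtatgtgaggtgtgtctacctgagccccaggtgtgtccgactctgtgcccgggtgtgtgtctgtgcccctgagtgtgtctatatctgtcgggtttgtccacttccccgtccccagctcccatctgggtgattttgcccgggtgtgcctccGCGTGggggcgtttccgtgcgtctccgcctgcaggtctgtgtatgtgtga
NDUFB11: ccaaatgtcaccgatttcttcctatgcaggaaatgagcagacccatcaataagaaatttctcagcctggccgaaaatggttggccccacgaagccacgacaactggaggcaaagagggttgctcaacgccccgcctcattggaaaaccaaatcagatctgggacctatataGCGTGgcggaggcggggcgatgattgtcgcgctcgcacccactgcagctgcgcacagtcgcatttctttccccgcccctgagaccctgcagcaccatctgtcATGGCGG
NDUFA1: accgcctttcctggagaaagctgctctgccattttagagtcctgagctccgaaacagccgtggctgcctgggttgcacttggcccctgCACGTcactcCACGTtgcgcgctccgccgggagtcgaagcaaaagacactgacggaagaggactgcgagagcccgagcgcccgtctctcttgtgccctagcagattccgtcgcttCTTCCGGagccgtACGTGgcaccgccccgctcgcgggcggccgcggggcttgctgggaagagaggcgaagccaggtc
NDUFA13: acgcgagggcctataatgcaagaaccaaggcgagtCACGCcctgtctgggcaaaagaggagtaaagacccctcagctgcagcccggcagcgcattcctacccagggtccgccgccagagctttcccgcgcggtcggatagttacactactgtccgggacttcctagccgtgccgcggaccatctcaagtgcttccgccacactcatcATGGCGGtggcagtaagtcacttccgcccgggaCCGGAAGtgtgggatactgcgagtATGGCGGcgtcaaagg

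The NDUFA4L2 window held 2 hypoxia cores and none of the other motifs. NDUFB11 held 1 hypoxia core and 1 ATGGCGG, the latter just after the start. NDUFA1 held 3 hypoxia cores and 1 ETS motif, and NDUFA13 held 1 hypoxia core, 1 ETS motif and 2 ATGGCGG. Windows of 250 bases before to 50 after the start were found for 56 of the 66 genes and for 27305 genes in all, with 1 window per gene. A hypoxia core was present in 33 of the 56 (58.9%) and in 48.4% of all windows. The ETS motif was present in 15 (26.8%, against 10.7% of all) and ATGGCGG in 18 (32.1%, against 5.72%). No motif contains another, and the hypoxia cores differ from each other in their first letter. A match describes the letters of the window and not the binding of a factor.

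Transcripts of the respiratory complexes were modestly lower in VHL cells within both pairs. Of the 66 genes, 62 passed the filter on low counts, and COX4I2, COX6A2, COX7A1 and NDUFA4L2 did not. Of the 62, 47 (75.8%) were lower in VHL in both pairs, against a background of 35.9% of 24417 tested symbols. SDHC and NDUFV3 were higher in both pairs, against 22.8% of symbols, and 13 genes changed sign between the pairs. Among the 12141 symbols with at least 20 counts in every library, 31.4% were lower in both. The median log2 change of the 62 genes was -0.42 for replicate 1 and -0.31 for replicate 2. It was -0.40 in the blocked fit, with quartiles of -0.60 and -0.18, against -0.03 for all tested symbols. The summed level of the 66 genes was 8598 and 6270 CPM (VEC and VHL) in replicate 1, then 4571 and 4112 CPM in replicate 2.

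As single genes, 8 of the 62 (12.9%) passed an adjusted p of 0.05 in the blocked fit (edgeR, Benjamini-Hochberg over all tested symbols), and all 8 were lower in VHL. Of all symbols 3.1% passed, 2.35% lower and 0.749% higher. Among the 12141 symbols with at least 20 counts in every library, 4.07% passed in the same fit. An unadjusted p under 0.05 was found for 25 of the 62 (40.3%), against 12.5% of symbols and 15.4% of those 12141. In the group-only fit of edgeR 0 of the 62 passed and 0 had an unadjusted p under 0.05, with a background of 0% passing, and DESeq2's Wald test without the block also called 0. Both VHL libraries lay below both VEC libraries for 6 of the 62 (NDUFA2, NDUFA11, NDUFB4, NDUFB5, NDUFB11 and NDUFC1). This held for 3.39% of symbols and for 5.12% of the 12141. None of the 62 lay above without overlap, against 4.47% of symbols and 924 of the 12141.

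The number called with the block changed with the other settings. It was 15 with DESeq2 size factors (background 4.09%), 5 with no filter (1.95%) and 20 with at least 20 counts in every library (9.73%). It was 19 with protein-coding genes alone (7.17%), 20 in DESeq2's Wald test (4.93%) and 7 with pseudogene counts added to each gene (3.12%). COX6A1, COX6B1 and NDUFV1 were the genes of the 8 not called with no filter. Just outside the threshold were NDUFB9 (edgeR adjusted p = 0.0520), NDUFS8 (0.0752) and NDUFB7 (0.0782).

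**Figure D1:**
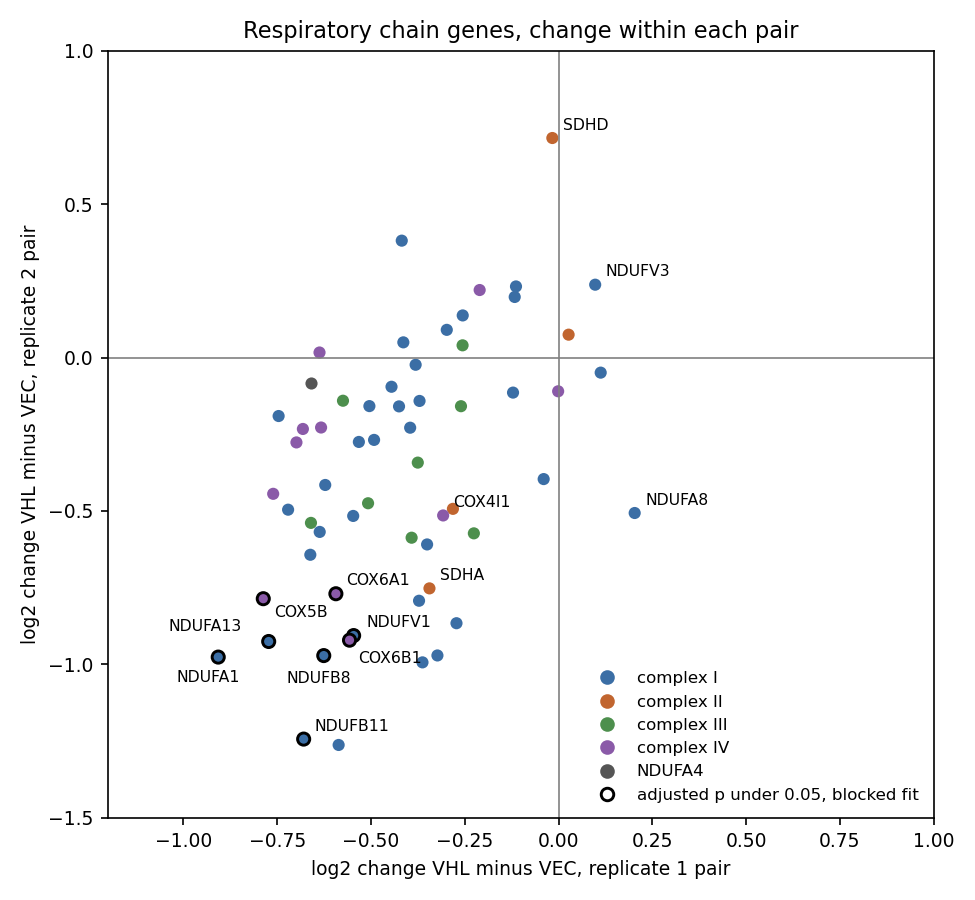
Log2 change (VHL over VEC) within the replicate 1 pair (x axis) and the replicate 2 pair (y axis) for 60 of the 62 tested genes, coloured by complex; UQCRH and COX6B2, with 0 counts in a replicate 1 library, are left out. Most points lie at the lower left, where both changes are below 0, black rings mark the 8 genes called in the blocked fit, and SDHD stands at the top with 0.72 on the y axis and -0.02 on the x axis.

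Complex I takes electrons from NADH through conserved core subunits, 7 of them on the list, surrounded by supernumerary subunits. All 36 of its genes were tested, 27 were lower in both pairs and NDUFV3 alone was higher in both. The pair medians were -0.42 and -0.34, and the blocked fit called 5 genes, all lower. The 7 core genes had a blocked median of -0.40 with 1 called, and the 29 supernumerary genes a median of -0.37 with 4 called.

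NDUFB11, a supernumerary subunit of the membrane arm, was at 40.05 and 24.98 CPM (VEC and VHL) in replicate 1 and at 30.6 and 12.9 CPM in replicate 2. Both VHL libraries were below both VEC libraries. The pair changes were -0.68 and -1.24, and the gene fell in the blocked fit (blocked -0.97 ± 0.23, edgeR adjusted p = 0.00241, with the SE after ±). The group-only fit, which was the main design, did not call it (-0.90 ± 0.75, edgeR adjusted p = 0.999991). NDUFA1, a small subunit needed for assembly of the complex, was at 158 and 83.998 CPM in replicate 1 and 42.8 and 21.7 CPM in replicate 2. The pair changes were alike, at -0.91 and -0.98, although VHL of replicate 1 lay above VEC of replicate 2 (blocked -0.94 ± 0.22, edgeR adjusted p = 0.00117).

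NDUFA13, also known as GRIM-19, was at 133 and 77.7 CPM in replicate 1 and 17.2 and 9.03 CPM in replicate 2 (blocked -0.85 ± 0.22, edgeR adjusted p = 0.00536). NDUFB8, a membrane arm subunit often used as a marker of the assembled complex, was at 62.1 and 40.2 CPM, then 16.4 and 8.32 CPM (blocked -0.80 ± 0.23, edgeR adjusted p = 0.0194). NDUFV1, the core subunit that binds NADH and flavin, was at 81.1 and 55.5 CPM, then 18.2 and 9.70 CPM (blocked -0.72 ± 0.22, edgeR adjusted p = 0.0341). In each of these 3 genes both replicate 2 libraries were below both replicate 1 libraries, so the groups overlapped, and the log2 change was larger in replicate 2.

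NDUFS1, the iron-sulfur core subunit, went the other way in replicate 2, with 564 and 521 CPM in replicate 1 and 333 and 391 CPM in replicate 2. NDUFV3, an accessory subunit of the arm that oxidises NADH, had the highest mean pair change of the complex. It was at 19.8 and 21.2 CPM in replicate 1 and 189 and 223 CPM in replicate 2, and it was not called (blocked 0.17 ± 0.22, edgeR adjusted p = 0.909). The replicates differed far more than the groups for this gene. Signs were opposite in the pairs for 8 complex I genes, among them NDUFA5 (-0.42 and 0.38) and NDUFA8 (0.20 and -0.51).

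**Figure D2:**
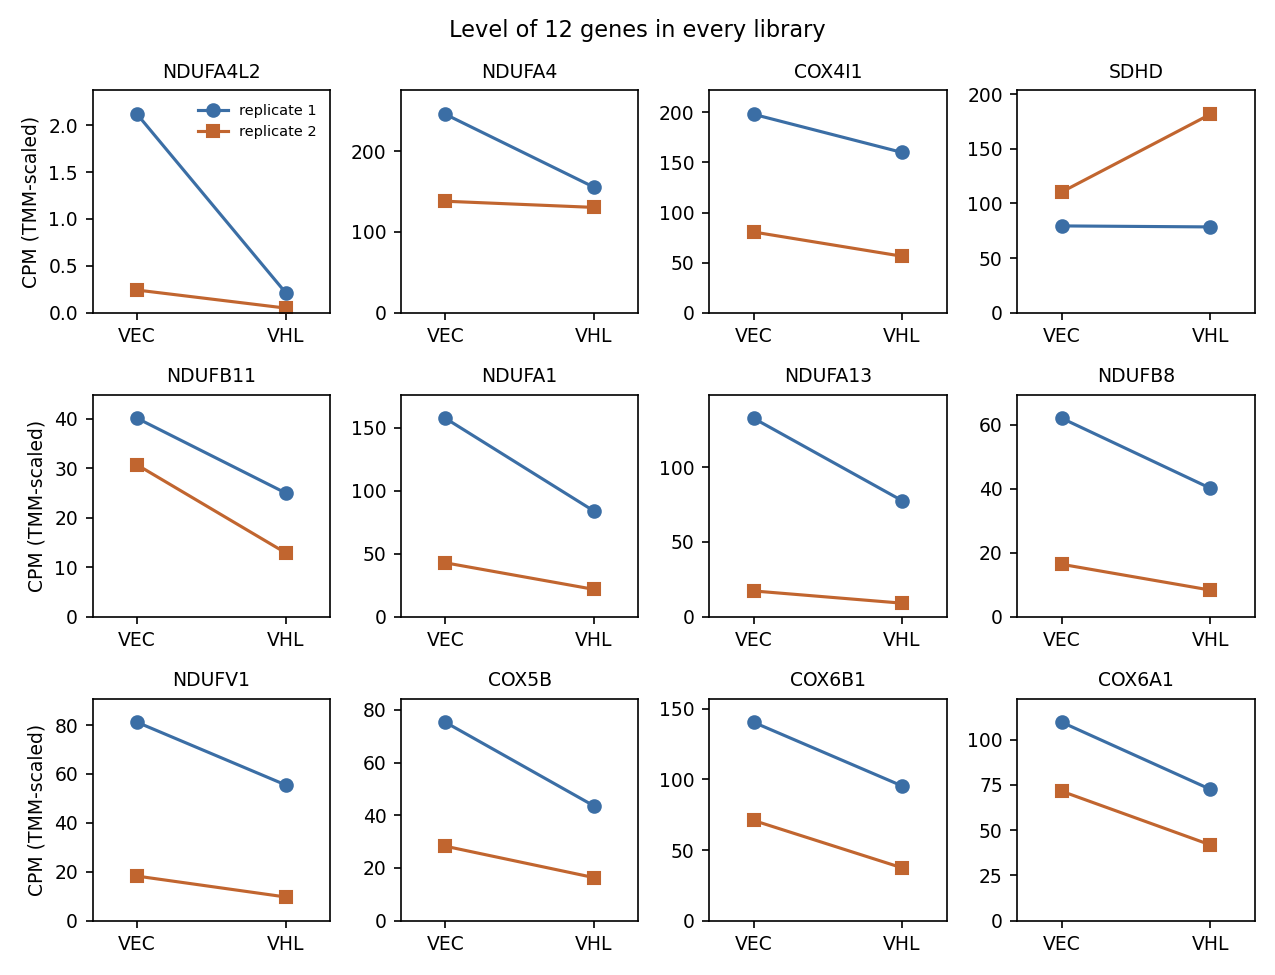
Level in CPM (TMM-scaled, linear axes from 0) of 12 genes in VEC and VHL libraries; blue circles are replicate 1 and orange squares replicate 2, and lines join the libraries of a pair. The 8 genes of the lower rows are lower in VHL in both pairs, NDUFA4L2 reaches 2.12 CPM at most, and SDHD has 111 and 182 CPM (VEC and VHL) in replicate 2 and 79.4 and 78.5 CPM in replicate 1.

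Complex II, succinate dehydrogenase, links the tricarboxylic acid cycle to the chain and is wholly nuclear-encoded. Its 4 genes did not share a direction, and 0 were called in the blocked fit of edgeR, where 1 had an unadjusted p under 0.05. SDHA, the flavoprotein, was at 98.3 and 77.4 CPM in replicate 1 and 66.7 and 39.6 CPM in replicate 2 (blocked -0.55 ± 0.21, edgeR adjusted p = 0.170). SDHB, the iron-sulfur subunit, was at 141 and 116 CPM, then 46.02 and 32.7 CPM (blocked -0.39 ± 0.22, edgeR adjusted p = 0.478). Both catalytic subunits were thus lower in VHL in each pair. With the block, SDHA passed in edgeR with DESeq2 size factors (adjusted p = 0.0483), at least 20 counts in every library (0.0203) and protein-coding genes alone (0.0240). It did not pass in DESeq2 with the block (adjusted p = 0.121). Nor did it in blocked edgeR with no filter (adjusted p = 0.283) or with pseudogene counts added (0.260).

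The membrane anchors did not follow them. SDHC was at 8.21 and 8.36 CPM in replicate 1 and 69.5 and 73.2 CPM in replicate 2, so that the replicates differed far more than the groups. The signs of its group-only value and replicate 2 pair change turned with the scaling. Its blocked value stayed slightly above 0 (blocked 0.05 ± 0.22, edgeR adjusted p = 0.988). SDHD was at 79.4 and 78.5 CPM in replicate 1 and 111 and 182 CPM in replicate 2. Its blocked value rested on the replicate 2 pair (blocked 0.35 ± 0.22, edgeR adjusted p = 0.579).

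Complex III, the cytochrome bc1 complex, passes electrons from ubiquinol to cytochrome c. All 9 genes were tested and 8 were lower in both pairs, while UQCRC2 (-0.26 and 0.04) was lower in both under the other scalings. The medians were -0.39 and -0.47 in the pairs and -0.40 in the blocked fit. In the blocked fit of edgeR 0 of the 9 were called and 3 had an unadjusted p under 0.05. UQCRQ, a small subunit near cytochrome b, had the lowest mean pair change among those with at least 20 counts in every library. It was at 263 and 166 CPM in replicate 1 and 77.3 and 53.2 CPM in replicate 2 (blocked -0.60 ± 0.22, edgeR adjusted p = 0.142). With the block, UQCRQ passed in DESeq2 (adjusted p = 7.53e-14) and in edgeR with DESeq2 size factors (0.0201), at least 20 counts in every library (0.00990) and protein-coding genes alone (0.00994). It did not pass in blocked edgeR with no filter (adjusted p = 0.229) or with pseudogene counts added (0.138). UQCRC2, a core protein, was at 262 and 219 CPM, then 82.2 and 84.5 CPM (blocked -0.11 ± 0.23, edgeR adjusted p = 0.962). UQCRH, the hinge protein gene, had 14 and 0 counts in replicate 1 and 46 and 28 in replicate 2, and its close copy UQCRHL had 0 in both replicate 1 libraries and 20 and 13 in replicate 2. The level of UQCRH is uncertain, as the sources used here do not say how reads that match both were counted.

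Complex IV, cytochrome c oxidase, has several subunits with tissue isoforms. Of its 15 genes 12 were tested, 9 were lower in both pairs and 0 were higher in both. The median was -0.61 in replicate 1 and -0.25 in replicate 2, and the blocked fit called 3 genes, all lower. COX5B, a zinc-binding subunit on the matrix side, was at 75.3 and 43.6 CPM in replicate 1 and 28.2 and 16.4 CPM in replicate 2. Its change was -0.79 in each pair (blocked -0.79 ± 0.22, edgeR adjusted p = 0.01415).

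COX6B1, which faces the intermembrane space, was at 140.4 and 95.4 CPM, then 70.9 and 37.4 CPM (blocked -0.74 ± 0.22, edgeR adjusted p = 0.0274). COX6A1, the broadly expressed form of subunit 6A, was at 109.6 and 72.6 CPM, then 71.5 and 41.9 CPM (blocked -0.68 ± 0.21, edgeR adjusted p = 0.0471). In both genes VHL of replicate 1 lay above VEC of replicate 2, so the fall showed within pairs and not across them. COX7A2L, which acts in joining complexes III and IV, was at 117 and 101 CPM, then 103 and 119.6 CPM. Its changes of -0.21 and 0.22 gave a blocked value whose sign turned with the scaling (blocked 0.01 ± 0.22, edgeR adjusted p = 0.999).

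For the oxygen-responsive isoform pair, COX4I2 had 0 counts in all 4 libraries. A count of 0 allows up to 3 counts, or 0.0600 to 0.185 CPM depending on the library, for counting error only. COX4I1 was at 198 and 160.0 CPM in replicate 1 and 80.5 and 56.4 CPM in replicate 2, with changes of -0.31 and -0.51. It was not called in the blocked fit (-0.41 ± 0.22, edgeR adjusted p = 0.447) or the group-only fit (-0.36 ± 0.84, edgeR adjusted p = 0.999991). No exchange between COX4I1 and COX4I2 was detectable at this depth.

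The muscle isoform genes were at or near 0. COX6A2 had 0 counts in every library, and COX7A1 had 1 and 4 counts in replicate 1 and 0 and 1 in replicate 2. COX7A2, the partner of COX7A1, was at 179.9 and 111 CPM in replicate 1 and 76.02 and 62.8 CPM in replicate 2 (blocked -0.49 ± 0.22, edgeR adjusted p = 0.281). With the block it passed in DESeq2 (adjusted p = 0.0161) and in edgeR with at least 20 counts in every library (0.0449) or protein-coding genes alone (0.0484). It did not pass in blocked edgeR with DESeq2 size factors (adjusted p = 0.0865), no filter (0.435) or pseudogene counts added (0.260). COX6B2, known as a testis isoform, had 0 and 5 counts in replicate 1 but 1472 and 1199 in replicate 2. Its level thus followed the replicate number, with a log2 change of -0.14 in replicate 2.

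NDUFA4L2, the paralogue of NDUFA4 and a characteristic transcript of clear cell carcinoma, was present at very low levels. VEC of replicate 1 held 49 counts and VHL 4, and replicate 2 held 11 and 2. In CPM these are 2.12 and 0.214, then 0.241 and 0.0490. VEC was 9.87-fold above VHL in replicate 1 (95% exact interval 3.62 to 37.7) and 4.93-fold in replicate 2 (1.08 to 45.7), and these intervals cover counting error only. In TMM-scaled CPM both VHL libraries lay below both VEC libraries, although VEC of replicate 2 was close to VHL of replicate 1. That separation depended on the scaling. By library totals, VEC of replicate 2 (11 of 50027348 counts) lay below VHL of replicate 1 (4 of 16230291), so the groups overlapped.

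The filter on low counts removed NDUFA4L2 from both fits. Without a filter the blocked fit gave -2.92 ± 0.97 (edgeR adjusted p = 0.0972) and the group-only fit -3.16 (edgeR adjusted p = 0.999995), so it was not called. NDUFA4 itself, now counted among complex IV subunits, was at 246 and 156 CPM in replicate 1 and 138 and 130.5 CPM in replicate 2. It was not called either (blocked -0.37 ± 0.23, edgeR adjusted p = 0.571).

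Other genes of the pathway were read from lists of ATP synthase subunits, assembly factors, regulators and hypoxia-linked mitochondrial genes. Of 18 ATP synthase genes 12 were lower in both pairs, with a blocked median of -0.32. ATP5MF fell (blocked -0.99 ± 0.22, edgeR adjusted p = 0.000474), as did ATP5ME (blocked -0.90 ± 0.28, edgeR adjusted p = 0.0427), and 0 were called higher. Assembly factors had blocked medians of -0.04 for the 15 of complex I, -0.33 for the 4 of complex II, -0.08 for the 6 of complex III and -0.01 for the 24 tested of complex IV. In edgeR 0 assembly factors were called, with an unadjusted p under 0.05 for 1, 1, 0 and 4 of them in that order.

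The 12 regulators of respiratory gene transcription, among them PPARGC1A, GABPA and TFAM, had a blocked median of 0.15. Of these 5 were higher and 1 lower in both pairs, 0 were called, and 1 had an unadjusted p under 0.05 in edgeR. Of 10 hypoxia-linked mitochondrial genes 4 were called, all lower. PDK1, the kinase that inhibits pyruvate dehydrogenase, was at 577 and 87.9 CPM in replicate 1 and 298 and 82.7 CPM in replicate 2 (blocked -2.28 ± 0.25, edgeR adjusted p = 3.43e-16). The mitophagy receptor genes BNIP3 (blocked -2.002 ± 0.26, edgeR adjusted p = 1.70e-11) and BNIP3L (blocked -1.28 ± 0.25, edgeR adjusted p = 6.64e-05) fell too. MXI1, a MYC antagonist, was the other gene called (blocked -0.99 ± 0.23, edgeR adjusted p = 0.00181). Of the 7 tested among other respiratory chain genes, such as the cytochrome c gene CYCS, 0 were called, 0 had an unadjusted p under 0.05 in edgeR, and the median was -0.16. The 13 subunits encoded in mitochondrial DNA are listed at 0 in all 4 libraries and were not analysed here.

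**Figure D3:**
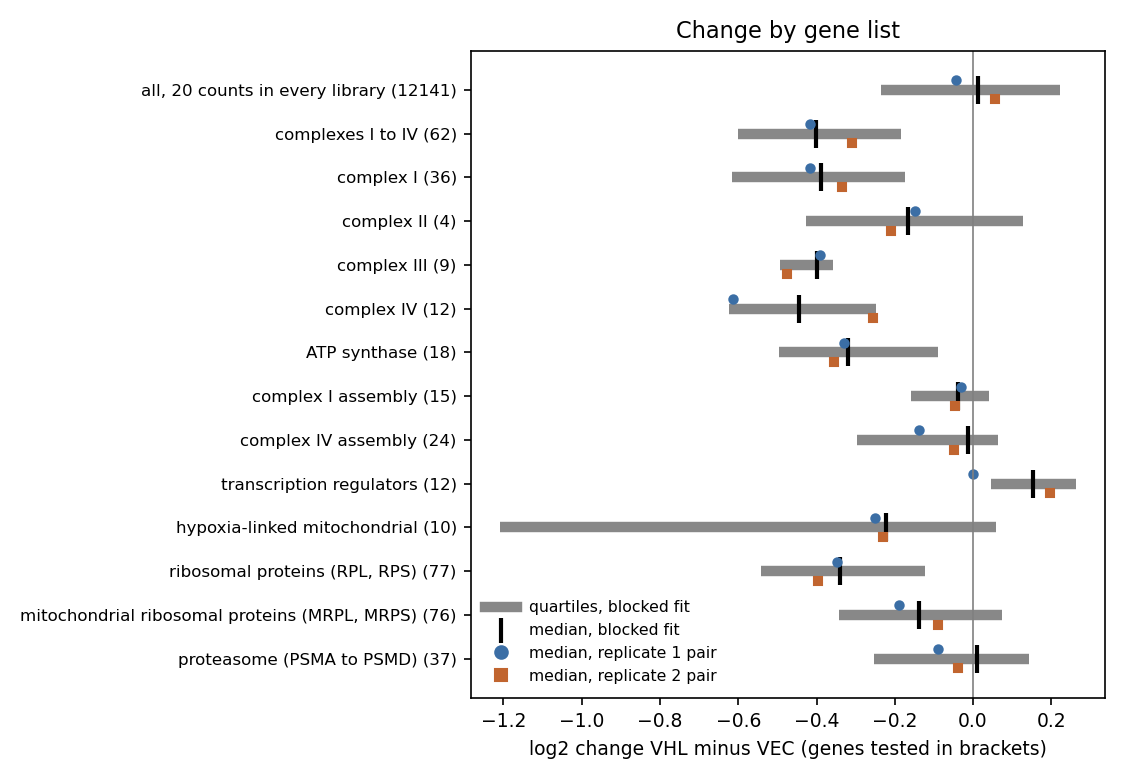
Log2 change (VHL over VEC, x axis) by gene list; grey bars span the quartiles and black ticks mark the median of the blocked fit over genes, and circles and squares are the medians of the replicate 1 and replicate 2 pairs. Complexes I to IV (-0.40), ATP synthase (-0.32) and ribosomal proteins (-0.34) lie left of the symbols with 20 counts in every library (0.01), while proteasome genes (0.01) do not; the ribosomal and proteasome lists were chosen after seeing the data.

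Genes outside the respiratory chain were shifted as well, including the renal line markers given above (median -0.36 over 6 genes). The lists of cytosolic ribosomal, mitochondrial ribosomal and proteasome genes were all chosen after seeing the data. Cytosolic ribosomal protein genes had a blocked median of -0.34 over 77 genes. Of these 55 (71.4%) were lower in both pairs, 0 were higher in both, and 3 were called, all lower. Mitochondrial ribosomal protein genes had a median of -0.14 over 76 genes with 52.6% lower in both pairs, and proteasome genes a median of 0.01 over 37 genes with 40.5% lower in both. Differences between these lists and the respiratory genes were not tested.

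Levels of the respiratory genes differed more between replicate numbers than between groups. Over the 60 genes with at least 20 counts in every library, 47 were lower in replicate 2 and 13 higher, with a median log2 difference of -1.14 (replicate 2 minus replicate 1). NDUFV3, SDHC and NDUFC2 were 10.0, 8.61 and 4.91 times as high in replicate 2, whereas NDUFA13 was at 0.125 times its replicate 1 level. In replicate 1 their share of raw counts, for all 66, was 0.934% (VEC) and 0.721% (VHL), and in replicate 2 it was 0.417% and 0.360%.

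Many of these genes have pseudogenes, whose reads can be shared with the gene. Over all symbols, pseudogenes held 1.33% to 2.04% of the counts in replicate 1 and 24.9% to 31.2% in replicate 2. Symbols of 134 pseudogenes or close copies were found for 35 of the 66 genes. They held 1.32% (VEC) and 1.58% (VHL) of the summed counts of all 66 genes and these pseudogenes in replicate 1. In replicate 2 they held 16.3% and 14.9%. The share over the 35 genes alone was higher, since the other genes add only to the total. In replicate 2 the share was 57.6% and 59.2% for SDHA and 53.2% and 53.3% for COX6A1. For SDHD it was 53.2% and 44.6%, with 5727 and 5982 counts on pseudogenes beside 5044 and 7420 on the gene.

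When each gene was summed with its pseudogenes, a step added after seeing the data, the blocked median was again -0.40. The sign changed for 0 of the 35 genes, and the largest shift was 0.13 on the log2 scale, for NDUFB4, from -0.29 to -0.16. SDHD moved from 0.35 to 0.23 and was not called (edgeR adjusted p = 0.837). COX6A1 was the called gene that no longer passed (edgeR adjusted p = 0.0558).

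**Figure D4:**
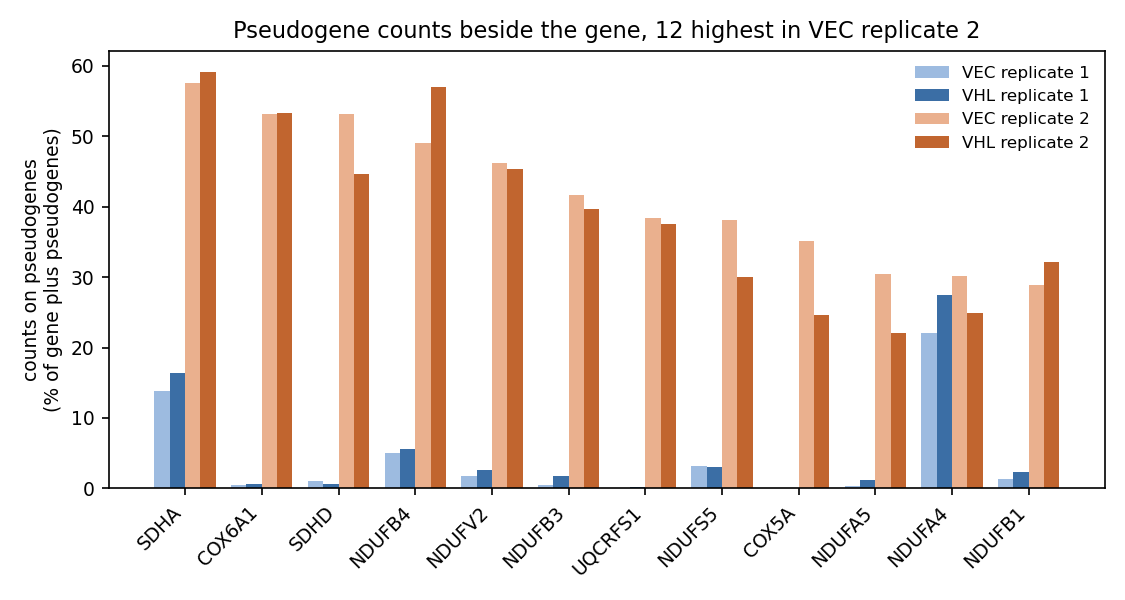
Counts on pseudogenes as a percentage of the counts of a gene and its pseudogenes together (y axis, from 0). Shown are the 12 genes with the highest share in VEC replicate 2 among those with at least 20 counts in every library. Each gene has 1 bar per library. Replicate 2 bars reach 59.2% (SDHA), while replicate 1 bars reach 27.5% (NDUFA4).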

How the data were processed

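RNA values were the authors' deposited raw counts per gene symbol, from sorted hg19 alignments per the file headers. The submitters' processing notes name featureCounts and HOMER, with no role or version. The aligner, annotation, strand setting and handling of multiply mapped reads are not given in the sources used here. The H3K27ac tables were not used, since their regions carry no positions.

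The genes were chosen with 5 symbol patterns, and genes and lists were chosen with earlier results of these data known. Named genes are NDUFA4L2, NDUFA4, COX4I1, COX4I2, the genes called in the blocked fit, the extremes of each complex by mean pair change, the SDH genes and isoform pairs. Others (UQCRH, NDUFS1, NDUFA5, NDUFA8, NDUFB4, NDUFC2, those without overlap or just outside the threshold) were chosen after their values were seen.

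The test used edgeR 4.0.16 in R 4.3.3: filterByExpr, TMM, glmQLFit and glmQLFTest (two-sided), Benjamini-Hochberg over 24417 symbols, threshold 0.05. SE is the absolute log2 change over the square root of F. Pair changes are log2 CPM differences with a prior count of 2. Exact permutation of 2 against 2 libraries cannot give p below 0.333. Alternatives included DESeq2 1.42.0. Deviations from group means correlated at 0.978 between same-numbered libraries, and the molecule label differs with the number, so the number was treated as a batch. The group-only fit was the main design. Common dispersion was 2.57 without and 0.0251 with the block, which left 1 residual degree of freedom. The fit also shares dispersion across genes, so the blocked SE says little about how well the pairs of a gene agree. It was 0.22 for COX5B (-0.79 in each pair) and also for NDUFA5 (-0.42 and 0.38). On simulated counts for the 24417 symbols, the blocked fit recovered 58 of 100 genes changed by 1 and 100 of 100 changed by 2 on the log2 scale. It made 4 false calls, and the group-only fit recovered 0. The simulation kept the replicate difference, gave every gene a dispersion of 0.025 and changed genes equally in both pairs. It therefore followed the assumptions of the blocked fit and cannot measure its errors where real pairs disagree. Promoter windows and biotypes came from RefSeq (GRCh38.p14).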

Additional observations from a re-analysis of the deposited data

How the results depend on the processing

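The number of respiratory genes called was 0 without the replicate block and 8 with it. With the replicate block it was also 15 (DESeq2 size factors), 5 (no filter), 20 (at least 20 counts), 19 (protein-coding genes), 20 (DESeq2) and 7 (pseudogenes summed). All these calls were lower in VHL, and without the block each of these settings gave 0. The group-only and blocked medians stayed between -0.40 and -0.46 with all 4 libraries, and the median was -0.31 in the replicate 2 pair alone. Scaling by library totals, size factors and TMM over protein-coding genes alone gave 48, 50 and 49 genes lower in both pairs.

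Leaving out 1 library unbalances the replicates, and the lone sample is assumed to vary like the other group. The group-only median then ranged from -1.04 to 0.21, being 0.21 without VEC replicate 1, -1.04 without VHL replicate 1, -0.84 without VEC replicate 2 and -0.10 without VHL replicate 2. The median of all symbols moved too, to -0.29, 0.27, 0.66 and -0.65, and 0 genes were called in each. Signs also turned in such fits, which ranged over COX4I1 -1.30 to 0.43, COX5B -1.66 to 0.085, COX6B2 -6.00 to 11.69, COX7A2 -1.03 to 0.19, COX7A2L -0.15 to 0.12, NDUFA1 -2.20 to 0.31, NDUFA13 -3.05 to 1.33, NDUFA4 -0.74 to 0.051, NDUFB8 -2.23 to 0.57, NDUFV1 -2.36 to 0.84, NDUFV3 -2.40 to 2.67, SDHB -1.52 to 0.69, SDHC -2.31 to 2.36, SDHD -0.33 to 0.94, UQCRC2 -1.02 to 0.89, UQCRQ -1.68 to 0.51.

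With all libraries, COX6B2 turned to 0.054 with the replicate block, 0.051 with the block and no filter, 0.053 with the block and pseudogenes, 1.36 in DESeq2 with the block and 2.41 in the replicate 1 pair. COX7A2L turned to -0.020 (DESeq2), -0.020 (size factors), -0.000136 (no filter) and -0.21 (replicate 1 pair). With the block it was -0.029 (DESeq2), -0.029 (size factors), -0.0068 (no filter) and -0.018 (protein-coding). SDHC turned to -0.014 (DESeq2), -0.014 (size factors) and -0.0064 (protein-coding), SDHD to -0.017 (replicate 1 pair) and UQCRC2 to 0.040 (replicate 2 pair). The cause was not tested. NDUFA4L2 and COX4I2 gave no value in the filtered fits. UQCRH and NDUFA4L2 had few counts in every library, which limits their estimates, and the cause of the low counts was not tested.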
